A study of Oreolalax rhodostigmatus with 13 samples.

Results

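The data were values of RNA abundance in single cave-dwelling tadpoles of the frog Oreolalax rhodostigmatus, and the unigenes described here were those that stood higher in every tadpole given 4 h of light than in every other tadpole. A unigene is an assembled transcript sequence, and its abundance was given as FPKM, a measure of sequenced fragments scaled to the length of the transcript and to the size of the library. A unigene was considered where its FPKM was above 0 in all 13 libraries and its mean over them was at least 1, which held for 29348 of the 249088 unigenes in the table. For each of these, the lowest of the 6 values at 4 h was divided by the highest of the 7 other values, and this ratio is called the score. The score was above 1 in 120 unigenes, which was 0.409% of those considered, and these 120 are the members. The mirror pattern, in which every value at 4 h lay below every other value, was found in 135 unigenes.

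The tadpoles were wild animals at Gosner stage 25, taken at the same time from a pool in the dark part of 1 cave, and no strain or genotype was given. The 4 controls were killed at collection, without light. Light was given in a cage at the cave entrance, with a lamp at night, to 6 short-term exposed tadpoles for 4 h and to 3 long-term exposed tadpoles for 30 h. Each library held the pooled tissues of 1 tadpole, given as skin, eyeball and liver in the labels, with part of the tail added in the study's methods. Between controls and exposed tadpoles, light, time of day and time in the cage changed together, so they cannot be told apart. If light began soon after collection, the 4 h and 30 h tadpoles were killed at similar hours on successive days. Between these 2 groups, light and time in the cage changed together. In such pooled tissue, a lower value can mean fewer cells of a type or less RNA per cell, and these cannot be told apart either.

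When animals meet a new condition, some genes are transcribed within hours and fall back while the condition lasts, whereas others build up slowly. The quick ones in vertebrates include transcription factors, feedback inhibitors of signalling and chaperones. Amphibian tadpoles can sense light with the eye, the pineal complex and, in Xenopus, with the pigment cells of the skin.

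The sum of FPKM per library ranged from 983190 to 1070969. The number of unigenes above 0 was lowest in short-term exposed replicate 5, with 91929, and the other libraries had between 112990 and 147363. The table gave no read counts, and the study's summary of sequencing quality was not used here. The depth of each library and its counting error were therefore not taken into account. The most frequent ratio of a library's low values to those of control replicate 1 was 0.785 to 1.19. It was taken as a rough estimate of the relative FPKM worth of 1 read, and so of relative depth. Median-of-ratios factors, which measure how the level of a typical unigene differed between libraries, ranged from 0.619 in short-term exposed replicate 5 to 1.32 in short-term exposed replicate 3. After division by these factors, 88 of the 120 members kept a score above 1, and 255 unigenes in all had one. Of the first 40 members by score, 38 kept a score above 1 in that scaling. Of the entries for the labelled tissues in the annotation used here, 4 of 8 liver, 1 of 4 epidermis and 0 of 2 lens and retina entries passed the filter on low values. Neither of these 2 lens and retina entries could therefore be a member, which says nothing about unigenes without a name. The summed FPKM of the lens and retina entries was 0.48 to 1.66 in controls, 1.13 to 2.82 at 4 h and 6.77 to 8.89 at 30 h. The annotation held genes that the study chose for rising with light, so this higher sum at 30 h is no independent evidence. Albumin 1 (Cluster-29057.101516), a plasma protein made by the liver, lay between 538 and 11982 FPKM in the 13 libraries.

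None of the 120 members was among the 4069 unigenes in the annotation tables used here, of which 1597 carried a name, so members are called by their identifiers. Sequences of the unigenes were not used here. All 120 belonged to Cluster-29057, the group of sequences that also held 98.96% of the 29348 unigenes considered. The cluster therefore did not set the members apart.

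The levels at 4 h chose the members, so those levels are given as a description and were not tested. The mean FPKM of a member at 4 h had a median of 14.4 and ranged from 1.78 to 167. The ratio of that mean to the control mean had a median of 4.11 and ranged from 1.20 to 53.8. The ratio to the mean at 30 h had a median of 3.82 and ranged from 1.79 to 22.5. The 4 h mean was at least 2-fold both other means in 98 members, at least 5-fold in 29 and at least 10-fold in 6. In limma, at an adjusted p under 0.05, 29 members were higher at 4 h than in controls (0.0408% of all unigenes tested) and 58 were higher than at 30 h (0.957%), and nothing is read from these counts, since the rule used the same values.

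**Figure D1:**
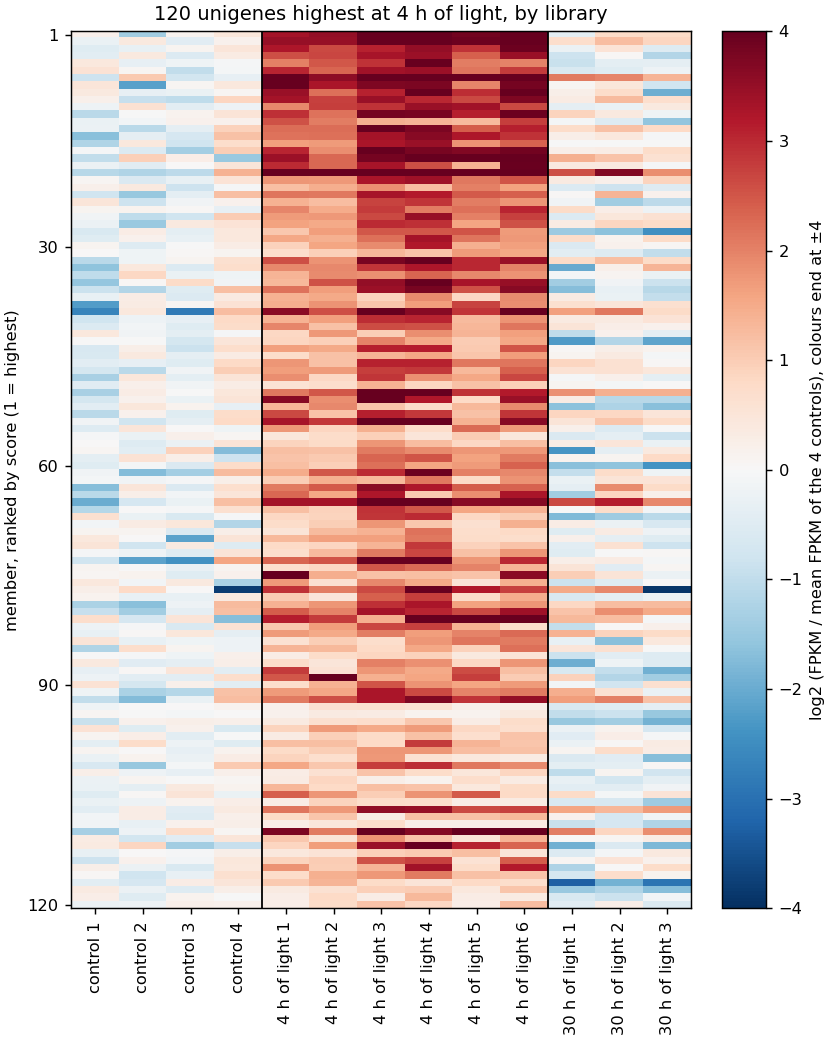
Heat map of the 120 members (rows, ranked by score) in the 13 libraries (columns). Colour is the log2 ratio of a library's FPKM to the mean of the 4 controls, and the 6 columns of 4 h of light are redder than the others in every row, while the 3 columns of 30 h hold both red and blue.

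The highest score, 5.94, belonged to Cluster-29057.132082. Its FPKM was 2.49, 0.83, 2.39 and 3.00 in the 4 controls, from 22.1 to 63.0 with a median of 35.5 in the 6 libraries at 4 h, and 1.66, 3.71 and 3.72 in the 3 libraries at 30 h. The lowest library at 4 h stood far above all 7 others, and the values of controls and 30 h overlapped. The mean was 17.6-fold higher at 4 h than in controls and 12.6-fold higher than at 30 h.

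The next score, 4.73, was that of Cluster-29057.151318. It had 0.64, 0.99, 0.56 and 0.86 FPKM in controls, 8.47 to 18.7 with a median of 13.5 at 4 h, and 1.25, 1.79 and 1.37 at 30 h. Here the 3 libraries at 30 h lay above all 4 controls as well as below the libraries at 4 h. Its log2 difference between 30 h and control was 0.88 (SE 0.45), with an adjusted p of 0.465 in limma.

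Cluster-29057.132074 and Cluster-29057.132076 followed with scores of 4.29 and 3.94. Cluster-29057.132074 had 2.16, 2.42, 3.22 and 4.18 FPKM in controls, 18.6 to 45.5 with a median of 26.8 at 4 h, and 2.54, 4.34 and 2.11 at 30 h. Cluster-29057.132076 had 2.77, 4.90, 2.57 and 4.66 in controls, 19.3 to 40.6 with a median of 29.9 at 4 h, and 2.08, 3.86 and 1.65 at 30 h. In both, the controls and the libraries at 30 h overlapped.

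The other 6 of the 10 members with the highest scores lay between 2.60 and 2.97. Cluster-29057.16714 had 0.71, 0.43, 0.48 and 0.52 FPKM in controls, 2.11 to 9.74 with a median of 2.60 at 4 h, and 0.29, 0.41 and 0.42 at 30 h. Its values at 30 h were all below the controls, and the 4 h maximum came from 1 library, replicate 4. Cluster-29057.143069 had 2.16, 1.50, 0.73 and 1.35 FPKM in controls, 6.33 to 15.4 with a median of 10.9 at 4 h, and 0.95, 1.03 and 1.26 at 30 h, so that the 30 h values fell inside the control range.

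Cluster-29057.62453 had 0.24, 0.88, 0.26 and 0.34 FPKM in controls, 5.16 to 39.5 with a median of 12.6 at 4 h, and 1.83, 1.67 and 1.10 at 30 h. All 3 values at 30 h were above all 4 controls. Its mean at 4 h was 37.2-fold the control mean, and the log2 difference between 30 h and control was 1.74 (SE 0.62, adjusted p = 0.250 in limma). Cluster-29057.33510 had 1.56, 0.25, 1.18 and 1.50 FPKM in controls, 4.36 to 19.5 with a median of 15.2 at 4 h, and 1.18, 1.53 and 0.65 at 30 h. Its lowest 4 h value was in replicate 5, and the other 5 were at 10.9 or more, while controls and 30 h overlapped.

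Cluster-29057.151320 had 0.75, 0.46, 0.48 and 0.61 FPKM in controls, 2.65 to 13.6 with a median of 5.54 at 4 h, and 0.68, 0.95 and 0.15 at 30 h. Cluster-29057.151311 had 3.45, 1.59, 1.48 and 5.4 in controls, 18.5 to 39.4 with a median of 27.0 at 4 h, and 3.75, 7.12 and 4.71 at 30 h. In both, controls and 30 h overlapped.

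**Figure D2:**
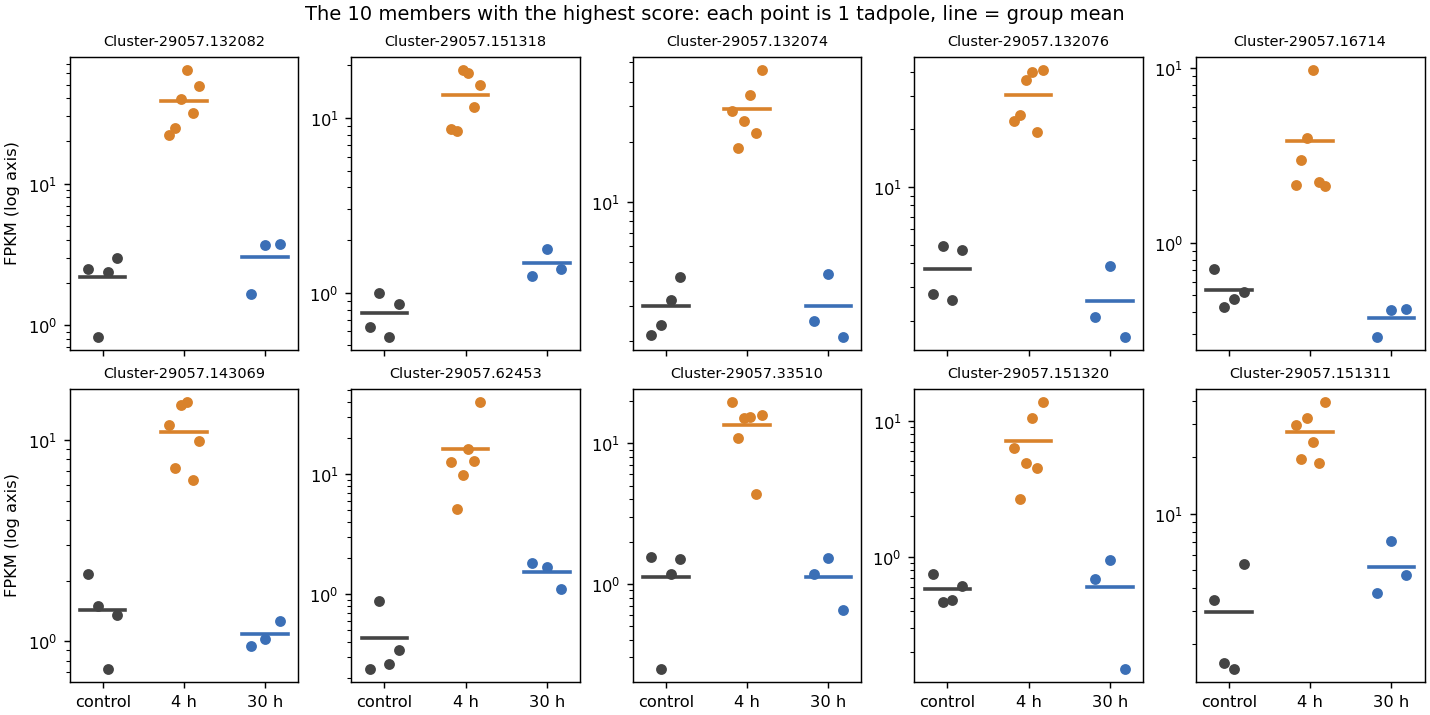
FPKM (log axes, 1 scale per panel) of the 10 members with the highest score, with 1 point per tadpole and a line at each group's mean. In each panel all 6 points at 4 h lie above all points of the 4 controls and the 3 libraries at 30 h, and in Cluster-29057.151318 and Cluster-29057.62453 the 3 points at 30 h also lie above all 4 controls.

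Scores fell quickly after these. The score was above 2 in 14 members and above 1.5 in 32, and its median over the 120 was 1.16. The last member was Cluster-29057.61839, with a score of 1.00, whose lowest value at 4 h was 12.91 FPKM against 12.89 in long-term exposed replicate 2. Just outside, Cluster-29057.131454 and Cluster-29057.34674 had a score of exactly 1, with 4 h minima of 2.32 and 0.97 FPKM that equalled their highest other value, and Cluster-29057.134314 had a score of 0.994. The edge of the list thus ran through values that differed in the second decimal.

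The members with the highest mean FPKM at 4 h were mostly others. Cluster-29057.95484 led with 167 ± 79.8 FPKM (SD, n = 6). It had 5.22, 20.4, 12.4 and 3.71 in controls, 51.6 to 277 with a median of 170 at 4 h, and 27.9, 22.9 and 16.0 at 30 h. At 30 h, 2 of the values were above all controls and the other was inside their range, and the 4 h libraries differed 5.36-fold among themselves.

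Cluster-29057.100632, with 166 ± 13.4 FPKM at 4 h (SD, n = 6), varied least of the 120 among the libraries at 4 h, which spanned 1.20-fold. Its controls were at 145, 137, 131 and 139, the libraries at 4 h between 152 and 183 with a median of 165, and those at 30 h at 69.5, 76.5 and 48.3. Its mean was 1.20-fold higher at 4 h than in controls, the smallest such ratio among the members, and the 30 h values were all below the controls.

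Cluster-29057.73699 had 27.1, 12.7, 13.8 and 68.3 FPKM in controls, 89 to 290 with a median of 126 at 4 h, and 84.0, 46.1 and 25.4 at 30 h. Cluster-29057.44388 had 19.1, 20.4, 18.3 and 44.6 in controls, 58.0 to 215 with a median of 111 at 4 h, and 46.4, 38.7 and 26.4 at 30 h. In both, control replicate 4 stood above the other controls, and 30 h overlapped the controls. Cluster-29057.128368 had 13.2, 21.9, 12.8 and 22.8 in controls, 58.3 to 208 with a median of 114 at 4 h, and 52.3, 44.8 and 57.3 at 30 h, so its values at 30 h were all above the controls and close below the lowest at 4 h.

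Of the remaining 5, Cluster-29057.40598 is described with the values at 30 h. Cluster-29057.96448 had a control mean of 36.7 ± 12.0 FPKM (SD, n = 4), 90.4 ± 20.3 (SD, n = 6) at 4 h and 40.6 ± 6.48 (SD, n = 3) at 30 h. Cluster-29057.100817 had means of 39.3, 87.6 and 45.3 FPKM in controls, at 4 h and at 30 h, Cluster-29057.106048 of 22.6, 76.5 and 20.5, and Cluster-29057.107236 of 23.2, 68.0 and 21.7. In these 4 the 30 h values overlapped the controls. Of the 10 members with the highest mean at 4 h, 5 had a score of 1 or less after median-of-ratios scaling, namely Cluster-29057.44388, Cluster-29057.107236, Cluster-29057.73699, Cluster-29057.100632 and Cluster-29057.128368, with scaled scores of 0.957, 0.822, 0.811, 0.769 and 0.853.

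The 6 libraries at 4 h did not carry the pattern equally. The lowest 4 h value of a member was in replicate 1 for 40 members, in replicate 2 for 37, in replicate 5 for 26 and in the other 3 replicates for 5 to 7 each. The highest was in replicate 4 for 50, in replicate 3 for 30 and in replicate 6 for 22. The median log2 deviation of a member from its 4 h mean was -0.40 and -0.44 in replicates 1 and 2 and 0.43 and 0.49 in replicates 3 and 4. Over all 29348 unigenes the same medians were -0.14, 0.22, 0.41 and 0.30, so replicate 2 was low for the members while it was high for the typical unigene. Among the other 7 libraries, control replicate 4 most often held the highest value, in 34 members, and a control did so in 69 members and a 30 h library in 51.

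Single libraries set the number of members. Without short-term exposed replicate 1, 427 unigenes had a score above 1, without control replicate 4, 338, and without short-term exposed replicate 5, 234. Leaving out any other single library gave 128 to 164. A score can only stay or rise when a library is left out, so a rise in the number was largely set in advance. Only its size differed between libraries. The filter that dropped unigenes with a 0 also counted, since 38 unigenes with a mean of at least 1 had a score above 1 but were at 0 in a control or 30 h library.

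Libraries held out of a choice gave values that this choice had not used. Replicate 1 of each group was held out, up to 150 unigenes with the highest score were chosen from the other 10 libraries, and the 3 held-out values were then read. The held-out 4 h library was the highest of the 3 in 75 of 150 unigenes (50%), against 30.0% of all unigenes that passed the filter. For replicates 2 the count was 108 of 150 (72.0%, against 41.1%) and for replicates 3 it was 127 of 150 (84.7%, against 47.7%). The held-out share was above the share of all unigenes in the 3 sets, and the smallest share was that of replicates 1. Control replicate 4 and short-term exposed replicates 4 to 6 were never held out. The 3 choices had libraries in common, so the 3 sets are not independent.

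The size of the difference in the held-out libraries varied in the same order. The median log2 ratio of 4 h to control over the 150 unigenes was 0.42 for replicates 1, 1.41 for replicates 2 and 1.92 for replicates 3, where the medians over all unigenes were -0.29, 0.38 and 0.37. The median log2 ratio of 4 h to 30 h was 0.59, 1.05 and 2.05, against 0.03, 0.01 and 0.27. The 3 sets of 150 shared 56, 82 and 102 unigenes with the 120 members. Each held-out set was 1 tadpole per group, so these shares carry no error over animals and were not tested. The 150 unigenes are no replicates, since some may be pieces of 1 gene. The shares over all unigenes were not matched to them in level or in spread between libraries.

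**Figure D3:**
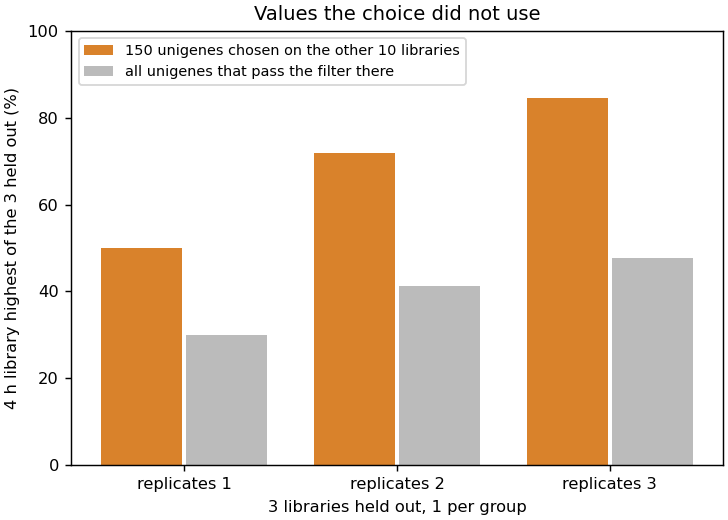
Share (%) of unigenes whose held-out 4 h library was the highest of 3 held-out libraries, for 150 unigenes chosen on the other 10 libraries (orange) and for all unigenes that passed the filter there (grey). The orange bars are at 50%, 72.0% and 84.7% and the grey bars at 30.0%, 41.1% and 47.7%.

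Whether the members returned to the control level was asked by comparing 30 h with control, a contrast whose direction the rule did not set. The rule did use these values, since it held controls and 30 h libraries alike below the lowest value at 4 h, so the test was not free of the selection. The difference was tested with limma on log2(FPKM + 0.1) over all 147192 unigenes with at least 0.3 FPKM in at least 3 libraries, and p-values were adjusted by the Benjamini-Hochberg method over all of them. All 120 members were among those tested. After 30 h, 2 members were higher than control and 2 were lower at an adjusted p under 0.05, and over all unigenes 0.975% were higher and 0.399% lower. At an unadjusted p under 0.05, 11 members were higher and 10 lower, and over all unigenes 7.27% were higher and 5.01% lower. The median log2 difference of the members was 0.06, that over all tested unigenes 0.20, and 65 of 120 members had a positive difference. The tested unigenes were a wider set than the 29348 considered and reached to lower levels, so these shares and medians are not like for like. The ratio of the 30 h mean to the control mean had a median of 1.02 in the members and 0.963 over the unigenes considered. In the members its middle 50% went from 0.747 to 1.40 and its range from 0.168 to 7.53.

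The mean at 30 h lay within the range of the 4 controls in 70 members, above it in 25 and below it in 25. Over all unigenes considered it lay above in 23.8% and below in 24.3%, so these counts did not set the members apart. Every value at 30 h was above every control in 9 members (7.50%), against 9.63% of all unigenes considered. Every value at 30 h was below every control in 19 members (15.8%), against 14.7%. Both shares were near those over all unigenes. A missed threshold does not show that a member was back at its control level, and with 3 tadpoles at 30 h the standard errors of the named members were 0.25 to 0.68 on the log2 scale.

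**Figure D4:**
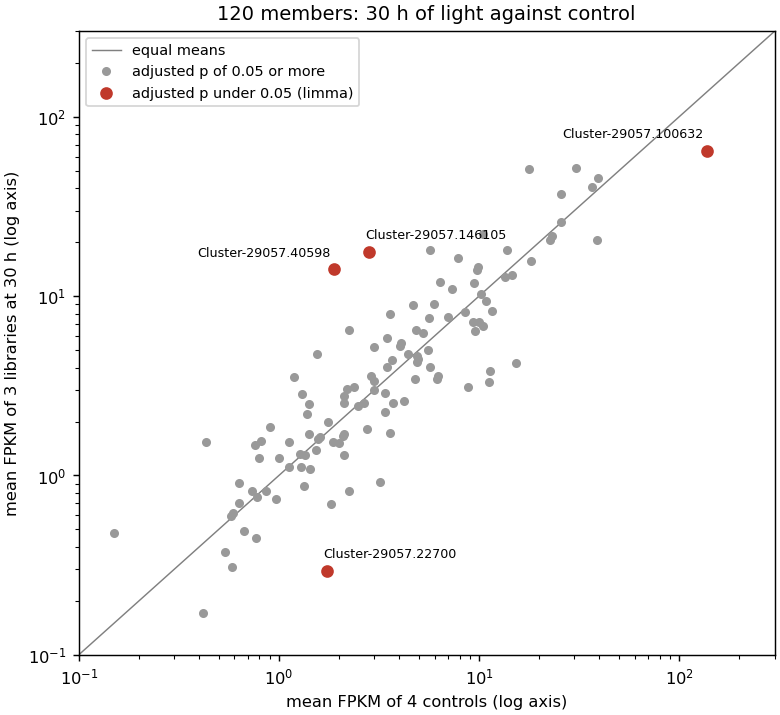
Mean FPKM of the 3 libraries at 30 h against that of the 4 controls (both log axes) for the 120 members, with a line of equal means. Points scatter on both sides of the line, and the 4 members with an adjusted p under 0.05 (red) are Cluster-29057.146105 and Cluster-29057.40598 above it and Cluster-29057.100632 and Cluster-29057.22700 below it.

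Cluster-29057.146105 had 0.71, 1.77, 2.34 and 6.48 FPKM in controls, 28.1 to 76.6 with a median of 35.9 at 4 h, and 17.6, 24.7 and 10.7 at 30 h. The 3 groups did not overlap. Its log2 difference between 30 h and control was 2.92 (SE 0.60, adjusted p = 0.0239 in limma), and the adjusted p over 22 alternatives ranged from 0.00701 to 0.120.

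Cluster-29057.40598 had 0.87, 0.81, 0.91 and 4.92 FPKM in controls, 44.7 to 191 with a median of 93.6 at 4 h, and 11.3, 24.3 and 6.81 at 30 h. Its groups did not overlap either, and its mean at 4 h was 53.8-fold the control mean, the largest such ratio of the 120. The log2 difference between 30 h and control was 3.10 (SE 0.68, adjusted p = 0.0346 in limma, 0.00890 to 0.170 over alternatives). Both members thus stood above control after 30 h but below every library at 4 h.

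The lower pair were Cluster-29057.100632, given above, and Cluster-29057.22700. Cluster-29057.100632 fell by 1.12 on the log2 scale between control and 30 h (SE 0.25, adjusted p = 0.0354 in limma, 0.0132 to 0.186 over alternatives). Cluster-29057.22700 had 1.29, 1.09, 2.13 and 2.46 FPKM in controls, 2.47 to 4.44 with a median of 3.01 at 4 h, and 0.18, 0.47 and 0.23 at 30 h. It fell by 2.23 on the log2 scale (SE 0.49, adjusted p = 0.0370 in limma, 0.0166 to 0.176 over alternatives), and its 4 h minimum exceeded the highest control by 0.01 FPKM. For both, the fall at 30 h was larger than the step between control and 4 h.

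These 4 calls rested on few libraries. The number of members higher at 30 h became 1 without control replicate 1, 0 without control replicate 2 or 3 or long-term exposed replicate 1 or 2, and 4 without control replicate 4. The number lower became 1 without control replicate 1 or 2 or short-term exposed replicate 3, and 0 without control replicate 3 or 4, short-term exposed replicate 6 or any 1 of the 3 long-term exposed replicates. Without control replicate 1 that member was another, since Cluster-29057.100632 and Cluster-29057.22700 then had adjusted p of 0.0745 and 0.0533 in limma. The summed FPKM of the liver entries was 854 to 2177 in controls, 542 to 2493 at 4 h and 8129 to 12021 at 30 h. Most of it was albumin 1, at 852 to 2176 in controls and 8060 to 11982 at 30 h. The sums of blood and skeletal muscle entries were 19.6 to 31.6 and 15.0 to 27.75 in controls. At 30 h they were 58.7 to 158 and 32.0 to 58.6. The 2 blood entries that passed the filter were macrophage stimulating 1 precursor and macrophage mannose receptor 1. The blood sum therefore does not stand for blood as a whole. The lens and retina sum was also above all controls at 30 h, while the epidermis sum overlapped, with 11.0 to 36.05 in controls and 18.95 to 45.3 at 30 h. Most of the epidermis sum was desmoglein-2 (Cluster-29057.103452), at 10.9 to 35.4 in controls and 14.8 to 41.2 at 30 h. Of the 4 epidermis entries, 2 were higher at 30 h than in control at an adjusted p under 0.05 in limma (0.975% over all). The part of these shifts in the differences at 30 h was not tested. The tissue lists were matched by name in the study's annotation, which held genes it chose for rising with light on these samples. Higher sums at 30 h are therefore no independent evidence of a change in tissue.

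Members were partly gathered in the numbering of the unigenes. With numbers at most 6 apart counted as neighbours, 27 members fell into 10 runs and 93 stood alone. In the annotation, 38 of 129 pairs of named unigenes with adjacent numbers had the same name, 9 of 93 pairs that were 2 apart and 3 of 86 pairs that were 3 apart, against 0 of 271 pairs that were 4 to 10 apart. Members up to 3 numbers apart may therefore be pieces of 1 gene and may share reads, so the 120 members may stand for fewer genes. No named pair speaks for this across the wider gaps that join the longest runs.

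The longest runs, a pair, held 5 members each. The first went from 132074 to 132082 and included Cluster-29057.132082, Cluster-29057.132074 and Cluster-29057.132076, described above. All 9 unigenes of this run had their highest mean at 4 h, which the rule set in advance for the 5 members. The run was picked through its members and only 6 of the 9 passed the filter. The 37.0% of all unigenes considered that were highest at 4 h is therefore no like background. Cluster-29057.132081 had 11.0, 14.6, 10.2 and 25.2 FPKM in controls, 29.5 to 78.1 with a median of 47.6 at 4 h, and 4.82, 5.02 and 2.89 at 30 h, and Cluster-29057.132077 had 6.63, 12.0, 9.74 and 7.04 in controls, 14.6 to 33.9 with a median of 21.9 at 4 h, and 2.84, 3.77 and 2.76 at 30 h.

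In these 2 members every 30 h value was below every control. The log2 difference was -1.77 (SE 0.44) for Cluster-29057.132081 and -1.45 (SE 0.40) for Cluster-29057.132077, with adjusted p of 0.0686 and 0.106 in limma. Their neighbours Cluster-29057.132074 and Cluster-29057.132082 had log2 differences of -0.02 (SE 0.43) and 0.51 (SE 0.52). In the order named, the means at 30 h were alike, at 4.24, 3.12, 3.00 and 3.03 FPKM. The control means were 15.26, 8.86, 2.995 and 2.18 FPKM, so these members differed in the controls more than at 30 h. Their shared high level at 4 h was set by the rule. Whether members of the run differed from each other in controls or at 30 h was not tested.

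The most abundant unigene of the run was no member. Cluster-29057.132075 had 69.8, 32.1, 56.3 and 74.5 FPKM in controls, 48.3, 5.97 and 7.81 at 30 h, and 88.3 to 472 in 5 of the 6 libraries at 4 h, but was listed at 0 in short-term exposed replicate 1, which the filter excluded. Over the table, 9 unigenes like it were above 0 in the other 12 libraries and highest in short-term exposed replicates 2 to 6, with a 0 in replicate 1.

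The second run went from 151310 to 151320 and held Cluster-29057.151318, Cluster-29057.151320 and Cluster-29057.151311, described above. Its other members were Cluster-29057.151310, with 0.44 to 2.22 FPKM in controls, 4.13 to 20.4 at 4 h and 1.34 to 1.86 at 30 h, and Cluster-29057.151317, with 0.58 to 1.18, 2.92 to 8.46 and 0.60 to 1.02. The 5 members stood at both ends of the run. Of the 6 unigenes between and beside them, Cluster-29057.151314 had means of 2.55, 2.17 and 3.28 FPKM in controls, at 4 h and at 30 h, with no higher mean at 4 h, and the others had means of at most 5.21 FPKM in any group.

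**Figure D5:**
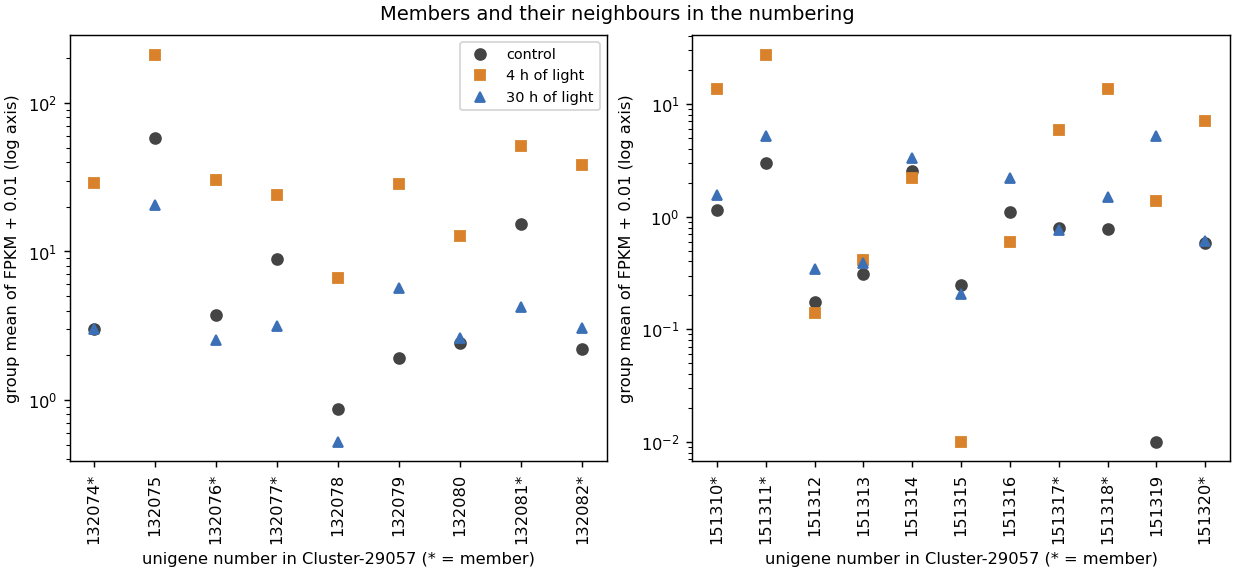
Mean of FPKM + 0.01 (log axis) in controls, at 4 h and at 30 h for the unigenes of both runs, in the order of their numbers, with members marked by a star. In the left panel the 4 h mean is the highest for all 9 unigenes, and in the right panel it is the highest for 6 of 11, among them the 5 members.

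Named genes were searched for the same pattern through lists of pathways. Of the named unigenes, 208 passed the filter, none was a member, and 36 (17.3%) had their highest mean at 4 h, against 37.0% of all unigenes considered. The annotation used here was partial and held the genes that the study drew on, which it chose on these samples, so this share is no independent evidence about named genes. No entry of any list below was higher at 4 h than in controls at an adjusted p under 0.05 in limma, where 0.0408% of all tested unigenes did. The number of all tested unigenes that did hung on 1 library. It was 60 with all 13 libraries, 2599 without short-term exposed replicate 1 and 32 to 89 without any other single library. Which list entries passed without that replicate is not given here, so the counts of 0 hold for the fit to all libraries only.

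Among the 5 named unigenes that came closest to a score of 1, which were picked after their values were seen, the first was chaperonin containing TCP1 subunit 4 (Cluster-29057.94609). This protein is a subunit of the ring complex that folds actin and tubulin. It had 57.9, 51.3, 83.1 and 100 FPKM in controls, 85.0 to 129 with a median of 98.8 at 4 h, and 25.2, 23.9 and 25.7 at 30 h, with a score of 0.849. Controls and 4 h overlapped through control replicate 4, which exceeded 3 of the libraries at 4 h, while 30 h lay below all others.

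Suppressor of cytokine signaling 3 (Cluster-29057.84582), a feedback inhibitor that cytokines induce, had 6.98, 10.9, 7.92 and 20.4 FPKM in controls, 14 to 68.8 with a median of 31.7 at 4 h, and 13.1, 19.5 and 11.3 at 30 h, with a score of 0.684. The libraries at 4 h were mostly the highest, but replicates 2 and 5 were under control replicate 4. Growth factor receptor-bound protein 7 (Cluster-29057.127072), an adaptor of receptor tyrosine kinases, had 7.73, 6.23, 5.68 and 9.62 in controls, 7.13 to 22.4 with a median of 17.2 at 4 h, and 6.00, 5.31 and 7.74 at 30 h, with a score of 0.741. Only replicate 1 at 4 h kept this entry from being a member. A second entry of the same name, Cluster-29057.85753, also passed the filter, with a score of 0.242. Its means were 1.26, 2.5 and 2.37 FPKM in controls, at 4 h and at 30 h. The remaining close named unigenes were a subunit of the mitochondrial inner membrane translocase, Tim22 (Cluster-29057.34682), and a protein of unknown function (Cluster-29057.84586). Their means in controls, at 4 h and at 30 h were 11.0, 12.4 and 5.52 FPKM, and 27.7, 28.7 and 16.5.

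In the list of chaperones, 1 of 12 entries passed the filter, and it was the chaperonin subunit. Between control and 30 h it fell by 1.50 on the log2 scale (SE 0.30, adjusted p = 0.0204 in limma), and its adjusted p was 0.00837 to 0.129 over alternatives. This call was lost without control replicate 3 or 4 or any 1 of the 3 long-term exposed replicates, with adjusted p of 0.0664, 0.0666, 0.0703, 0.0888 and 0.0762. Of 28 entries for ubiquitin and the proteasome, 7 passed the filter and 3 of these had the highest mean at 4 h (37.0% over all unigenes considered). Ubiquitin-conjugating enzyme E2 L3 (Cluster-29057.103455), which hands ubiquitin to ligases, had means of 66.4, 76.3 and 32.0 FPKM, with a score of 0.557.

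For MITF, the transcription factor that directs melanocyte development, 0 of 16 entries passed the filter on low values, so none could be a member. By mean alone, 8 of the 16 were highest at 4 h. That share over all unigenes was computed only for those that passed the filter, so this count has no like background. Of the 11 tested, 8 were higher at 4 h than in controls at an unadjusted p under 0.05 in limma and 0 passed the adjusted p, where 5.9% of all tested unigenes had such an unadjusted p, with a median log2 difference of 2.15 against -0.10 over all tested unigenes. Their summed FPKM was 0 to 2.04 in controls, 0.65 to 13.7 at 4 h and 0.99 to 17.3 at 30 h, so the groups overlapped. Between 4 h and 30 h, 0 of the 11 differed in either direction at an unadjusted p under 0.05 in limma. The entries were the MITF transcripts that the study showed on these samples, so their shares are no independent evidence.

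Of the insulin-like growth factor axis, which promotes growth, 0 of 10 entries passed the filter, and 8 of 10 were highest at 4 h by mean. Of the 9 tested, 6 were higher at 4 h than in controls at an unadjusted p under 0.05 in limma (5.9% over all). With the adjusted p, 0 passed. The summed FPKM of the 10 entries was low, at 0.44 to 1.19 in controls, 1.28 to 14.1 at 4 h and 1.02 to 11 at 30 h. Of the 117 other growth factor entries, 27 were highest at 4 h by mean and 17 passed the filter. Of the 111 tested, 50 were higher at 4 h than in controls at an unadjusted p under 0.05 in limma (5.9% over all), and 0 passed the adjusted p. At 30 h, 47 were higher than in control at an adjusted p under 0.05 (0.975% over all). In the epidermal growth factor list, 3 of 28 entries were highest at 4 h by mean. Of its 25 tested, 16 were higher and 1 lower at 4 h than in controls at an unadjusted p under 0.05 in limma (5.9% higher over all). With the adjusted p, 0 passed at 4 h, while 17 were higher at 30 h than in control at an adjusted p under 0.05 (0.975% over all). Whether these lists differed was not tested. The counts of entries highest at 4 h by mean have no like background, since that share was computed only for unigenes that passed the filter. Both growth factor lists were chosen by the study on these samples. The insulin-like entries were matched by name in its annotation, so their shares are no independent evidence either.

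Of 48 pigmentation entries, 9 passed the filter and 2 of these were highest at 4 h by mean (37.0% over all unigenes considered). Sepiapterin reductase (Cluster-29057.73007), an enzyme of pteridine synthesis, came closest, with a score of 0.477 and means of 24.5, 24.6 and 8.86 FPKM in controls, at 4 h and at 30 h. Of the clock and immediate early genes, only 2 entries were in the annotation used here and neither passed the filter, and of the 6 entries for fasting and lipid metabolism 2 passed and neither was highest at 4 h.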

How the data were processed

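The authors deposited FPKM values, rounded to 2 decimals, for unigenes assembled de novo with Trinity from the reads of all 13 libraries, after FastQC 0.10.0 checks and filtering for adapters, poly-N and base quality. No aligner or counter was named in the sources used here. Values are scaled to unigene length and library size and keeps no counts. Values of exactly 0 may be failed estimates. Groups and replicate numbers came from the labels. No source says that a replicate number marks a batch, and the spread between libraries is that between single tadpoles.

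The score was computed on FPKM as deposited. For 30 h against control, limma 3.58.1 (R 4.3.3) was fitted to log2(FPKM + 0.1) with 3 groups over 13 libraries and a mean-variance trend, and tested on simulated data. Other steps ran in Python 3.11.15 with numpy 2.4.6, pandas 2.3.3 and, for plots, matplotlib 3.10.9. Members named were the 10 with the highest score, the 10 with the highest mean at 4 h, those past the adjusted p for 30 h against control, the last member and the first outside, and of each list up to 5 entries that passed the filter, of which those near the pattern are given. The other members of the numbering runs, and SOCS3 and other named unigenes close to a score of 1, were added after their values were seen. Members and lists were chosen with earlier results of these data known. Names are best protein hits from the study's annotation, held here in part.

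Alternatives were pseudocounts of 1 and 0.01, other filters, median-of-ratios scaling, array weights, other sets of libraries and a replicate block. No genome was used.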

Additional observations from a re-analysis of the deposited data

Results flagged for a closer look

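Groups of 4 and 6 libraries of the named members were checked for 1 library far from the rest, 46 groups in all, of which chance flags about 1 in 20. In 6 groups the library at the end lay far from its neighbour. In Cluster-29057.16714, short-term exposed replicate 4 had 9.74 FPKM, where the other 5 libraries at 4 h had 2.11 to 3.98. In Cluster-29057.62453, control replicate 2 had 0.88 FPKM against 0.24 to 0.34 in the other controls, and short-term exposed replicate 6 had 39.5 FPKM against 5.16 to 16.3. In Cluster-29057.44388, control replicate 4 had 44.6 FPKM against 18.3 to 20.4. In Cluster-29057.40598, control replicate 4 had 4.92 FPKM against 0.81 to 0.91. In Cluster-29057.146105, short-term exposed replicate 3 had 76.6 FPKM against 28.1 to 46.1. Control replicate 4 was the high library in 2 of these 3 control groups, and it held the highest value outside 4 h in 34 of the 120 members.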

How the results depend on the processing

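The number of unigenes with a score above 1 was 120. It was 255 after median-of-ratios scaling, 452 when replicates 1 of both exposed groups were dropped together, and 128 to 452 when libraries were left out. Leaving out a library can only keep or raise a score. Without a minimum mean, with a mean of at least 5 and with zeros allowed it was 133, 81 and 158. Members higher at 30 h than in control numbered 2, and 1 with a pseudocount of 1 or with only the control and long-term exposed libraries, 0 without those 2 replicates, and 0 to 4 when libraries were left out. With only the control and long-term exposed libraries that member was another. Cluster-29057.146105 and Cluster-29057.40598 then had adjusted p of 0.117 and 0.115 in limma. Members lower numbered 2, and 1 with a pseudocount of 1 or no filter, 5 with a filter of 1 FPKM in at least 3 libraries, 6 with array weights, 0 with only those 2 groups or without the 2 replicates, and 0 to 2 when libraries were left out. Over all tested unigenes, 1435 were higher and this became 2325 and 868 with pseudocounts of 1 and 0.01, 869 with the stricter filter and 825 to 1464 when libraries were left out. The 588 lower became 1127 with array weights, 313 without the 2 replicates and 273 to 754 when libraries were left out. The members' median log2 difference of 0.06 ranged from -0.00282 to 0.15 when libraries were left out. The cause of these changes was not tested.

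The replicate numbers did not pair the samples. Deviations from the group means correlated at -0.11 to 0.02 over 10 pairs of libraries with the same number, and no label ties a number to a batch. With the replicate block, 1 member was higher and 0 lower, 518 and 162 of all tested unigenes were, and the median log2 difference was 0.20. The 30 h against control difference kept its sign in the 4 members called, in Cluster-29057.132081 and Cluster-29057.132077, in the chaperonin subunit and in growth factor receptor-bound protein 7, and no other single unigene was run under the alternatives. Read counts were not used here, so what depth limits could not be computed. The counting error of the score exists but could not be computed.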
